A study of Mus musculus with 18 samples.

Results

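The Hedgehog pathway genes described here are Gli1, Gli2, Gli3, Ptch1, Smo, Hhip, Shh and Ihh, and they were measured on 19 of the 45101 probe sets of the array. A probe set, a group of short probes that together read 1 transcript, was taken where the annotation of the array paired it with 1 of these 8 symbols and no other gene. There was 1 probe set each for Gli1 and Ihh, 2 each for Gli2 and Shh, 3 each for Gli3, Ptch1 and Smo, and 4 for Hhip. The tissue was RPE/choroid, the pigmented epithelium behind the retina with the vascular layer beneath it, of male C57BL6/J mice (2 months of age per the labels). All animals had received 1 intravitreal injection of 1 μL, on the same day per the methods. The animals of day 30 were thus harvested later and older than those of day 7. Day after injection, age and date of harvest cannot be told apart. The groups were dexamethasone (Dex, 10 μg), triamcinolone acetonide (TAA, 25 μg) and the solvent, balanced salt solution (BSS), at day 30, and Dex, TAA and BSS at day 7, with 3 arrays of separate animals in each of the 6 groups. Eyes without an injection were not analysed here, and steroid and dose cannot be told apart where Dex and TAA are compared, since their doses differ. The 3 arrays of a group came from the animals with the best RNA out of 4 injected. According to the methods, part of the choroid may have stayed on the sclera, which was removed.

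Hedgehog ligands, Shh and Ihh among them, are secreted proteins that bind the receptor Ptch1. Without ligand, Ptch1 holds the membrane protein Smo inactive at the primary cilium. With ligand, Smo is released and the transcription factors Gli2 and Gli3 switch from repressing to activating their targets, Gli2 as the main activator and Gli3 mostly as a repressor. Gli1, Ptch1 and Hhip are themselves targets, so their transcripts are the usual readout of the pathway. Hhip is a decoy that binds the ligands. In the mouse eye, Ihh is made by choroidal endothelium and acts on mesenchymal cells of the choroid and sclera, whereas Shh is made by retinal ganglion cells.

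All values are on the log2 scale and relative to the median of the same probe set over the 18 arrays, so 0 stands for that median and a difference of 1 is a doubling. They hold no level: neither the abundance of a Hedgehog gene nor the presence of the markers that define RPE could be read, and genes were not ranked by abundance. The mean of 14 RPE genes lay between -0.26 and 0.23 on every array. In contrast, genes of rod photoreceptors, which should be dissected away with the retina, differed widely among arrays: the mean of 23 rod genes (of 26 listed) was -1.13, 0.11 and 2.89 after Dex and 2.10, 2.71 and -1.14 after TAA, against 3.15, -0.43 and 2.97 after BSS, at day 30 (replicates 1, 2 and 3 in order, here and below). At day 7 it was 1.09, 1.34 and -0.27 after Dex and -0.29, -1.23 and 1.72 after TAA, against -1.07, -0.73 and -0.51 after BSS. BSS replicates 1 and 3 at day 30 were thus the arrays with the most rod signal, and the day 30 differences of the members that moved most without them are given both ways. In bulk tissue, fewer cells of a type and less RNA per cell cannot be told apart.

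Promoters (300 bases, 250 before to 50 after the start) were taken from a table made from RefSeq, GRCm38.p6, in which 6 of the 8 genes were matched. Those of Gli1 and Shh were not analysed here. Those of Hhip, Gli2 and Ptch1 are shown 5′ to 3′ on the gene's strand, because these were the target genes and the activator among the probe sets set apart below between day 30 and day 7. Capitals mark the core of the Gli binding site, CCACCC, or its reverse complement, GGGTGG. The Hhip promoter lies on the minus strand at chr8:80057959-80058258, that of Gli2 on the minus strand at chr1:119053570-119053869, and that of Ptch1 on the minus strand at chr13:63565686-63565985.
Hhip: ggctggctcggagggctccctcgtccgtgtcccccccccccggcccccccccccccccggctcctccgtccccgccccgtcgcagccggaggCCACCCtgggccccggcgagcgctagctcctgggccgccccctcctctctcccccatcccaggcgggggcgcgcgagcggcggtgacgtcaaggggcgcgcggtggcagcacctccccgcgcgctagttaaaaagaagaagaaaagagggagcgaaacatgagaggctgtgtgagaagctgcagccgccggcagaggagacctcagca
Gli2: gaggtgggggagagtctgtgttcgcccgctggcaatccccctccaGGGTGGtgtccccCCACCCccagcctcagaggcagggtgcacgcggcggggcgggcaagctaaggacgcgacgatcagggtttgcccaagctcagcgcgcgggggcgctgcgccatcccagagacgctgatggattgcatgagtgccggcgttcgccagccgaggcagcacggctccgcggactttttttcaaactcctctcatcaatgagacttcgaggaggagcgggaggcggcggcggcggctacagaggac
Ptch1: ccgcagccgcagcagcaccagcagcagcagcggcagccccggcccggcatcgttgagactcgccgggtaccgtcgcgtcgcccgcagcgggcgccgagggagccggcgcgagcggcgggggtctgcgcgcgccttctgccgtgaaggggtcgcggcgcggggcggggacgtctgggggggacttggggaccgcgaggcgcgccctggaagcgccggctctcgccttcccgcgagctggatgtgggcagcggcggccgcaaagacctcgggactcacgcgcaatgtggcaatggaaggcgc
The core was found 1 time in Hhip, 2 times in Gli2 and 0 times in Ptch1, and 31.5% of 32851 promoters of this length hold it on either strand. The longer Gli consensus GACCACCCA, which contains the core, was found in 0 of the 3, against 0.253% of all promoters. AGAACA, the half-site of the glucocorticoid receptor that both steroids activate, was likewise found in 0 of the 3, against 19.0% of all promoters. These are matches of letters in a short window and were not tested for binding.

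At day 30, most Hedgehog probe sets were on average higher in steroid eyes than in BSS eyes, but 0 of 19 probe sets passed an adjusted p of 0.05, in these and in all other comparisons of the 6 groups by limma. Over all probe sets, 0% passed against BSS at day 30, and 0.399% between days over all treatments, 0.00887% in Dex eyes and 0.00222% each in TAA eyes, in BSS eyes and for TAA against BSS at day 7 were the only shares above 0 among these contrasts. The difference from BSS was above 0 for 16 of 19 probe sets after Dex (median 0.23 on the log2 scale, against 0.005 over all probe sets) and for 16 of 19 after TAA (median 0.30, against 0.0026 over all), where 51.5% and 50.9% of all probe sets were above 0. The 2 comparisons share the same 3 BSS arrays. The largest difference was that of the target gene Gli1 after Dex, 0.83, and after TAA that of the decoy Hhip, 0.71. At an unadjusted p of at most 0.05, 5 of 19 probe sets differed after Dex, where 4.23% of all probe sets did (4 higher, against 2.37% of all, and 1 lower, against 1.86%), and 7 of 19 after TAA, where 2.63% did (6 higher, against 1.17%, and 1 lower, against 1.46%). The arrays of the 2 groups did not overlap for 2 members higher and 1 lower after Dex (2.59% and 2.25% of all probe sets), and for 4 higher and 0 lower after TAA (2.86% and 3.11% of all). By the methods' t-test the counts at that p were 0 of 19 after Dex and 2 of 19 after TAA. No share of all probe sets is given at that p for this test or for fits with arrays left out. With BSS replicate 2 as the only control of day 30, an alternative added after seeing the data, the limma counts were 1 of 19 after Dex (Smo 1442215_at) and 0 of 19 after TAA, but a control of 1 array also widens the error. The differences themselves split: those of Gli1 after Dex and of Hhip 1455277_at were far smaller, as given with each gene, while Gli2 1446086_s_at kept 0.31 after Dex and 0.32 after TAA, and Shh 1436869_at kept -0.32 and -0.35. With 1 array left out at a time, the Dex count ran from 2 (without BSS replicate 3 of day 30) to 8 (without Dex replicate 3), with 3 without Dex replicate 1 or 2, and the TAA count from 4 (without BSS replicate 1 of day 30) to 11 (without BSS replicate 2). An F-test over the 6 groups gave 6 of 19 at that unadjusted p (5.06% of all), with 0.0155% of all probe sets past the adjusted threshold, and one of treatment within a day gave 2 of 19 (1.73% of all).

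Gli1, the transcription factor whose own gene responds to the pathway, read 0, 0.41 and 0.11 after Dex and -0.18, -0.35 and 0.21 after TAA, against -1.08, -0.019 and -0.86 after BSS. The 3 Dex arrays lay above the 3 BSS arrays, while TAA overlapped BSS because BSS replicate 2 stood near 0. The difference was 0.83 ± 0.26 after Dex (SE, n = 3 each, 1.77-fold, adjusted p = 0.999 by limma) and 0.55 ± 0.26 after TAA (95% interval -9.9e-05 to 1.09). Against BSS replicate 2 alone the Dex difference was 0.19.

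Hhip showed the widest spread over the 18 arrays on probe set 1455277_at, with 0.053, -0.075 and -0.16 after Dex and -0.10, -0.099 and 0.22 after TAA, against -1.23, 0.034 and -0.91 after BSS. BSS replicates 1 and 3 lay below every steroid array of the day and replicate 2 lay within them. The mean differences of 0.64 ± 0.25 after Dex and 0.71 ± 0.25 after TAA (SE, n = 3 each) were 0.38 and 0.45 without BSS replicate 1, 1.01 and 1.08 without replicate 2, and turned to -0.094 and -0.028 with BSS replicate 2 as the only control. The other 3 Hhip probe sets differed from BSS by 0.17, 0.23 and 0.42 after Dex and by 0.0012, 0.32 and 0.17 after TAA (1421426_at, 1437933_at and 1438083_at).

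Gli2, the main activator, had BSS arrays that lay close together on 1 of its probe sets. On 1446086_s_at the day 30 values were 0.027, 0.32 and -0.14 after Dex and 0.11, 0.11 and 0.012 after TAA, against -0.37, -0.24 and -0.32 after BSS. All steroid arrays lay above all BSS arrays, and the differences were 0.38 ± 0.11 after Dex and 0.38 ± 0.11 after TAA (SE, n = 3 each, adjusted p = 0.999 after Dex, limma). Without Dex replicate 2 the Dex difference was 0.25. The other Gli2 probe set, 1459211_at, gave 0.14, -0.0081 and -0.37 after Dex and -0.18, 0.04 and -0.14 after TAA, against -0.79, -0.026 and -0.38 after BSS. There the groups overlapped, with differences of 0.32 after Dex and 0.30 after TAA.

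Gli3, mostly a repressor in the absence of ligand, differed after TAA more than after Dex on 2 of its 3 probe sets, without a difference between the steroids that passed. 1455154_at read 0.02, 0.10 and -0.58 after Dex and 0.29, 0.40 and -0.028 after TAA, against -0.85, -0.29 and -0.031 after BSS. TAA lay above BSS on all arrays by a narrow margin, with a difference of 0.61 ± 0.22 (SE, n = 3 each), and Dex overlapped BSS with 0.24. 1456067_at had -0.043, 0.029 and -0.53 after Dex and 0.074, 0.38 and -0.02 after TAA, against -0.69, -0.26 and 0.052 after BSS and a TAA difference of 0.44, with overlap. Without BSS replicate 1 the TAA differences were 0.38 on 1455154_at and 0.25 on 1456067_at, and against BSS replicate 2 alone they were 0.51 and 0.41. The third probe set, 1450525_at, differed by -0.043 after Dex and -0.046 after TAA.

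Among the genes that receive the signal, Smo, the membrane protein that passes it on, stood higher after TAA on 2 of 3 probe sets. 1427048_at read -0.14, 0.41 and -0.22 after Dex and 0.33, 0.24 and 0.32 after TAA, against -0.49, -0.086 and -0.051 after BSS. All 3 TAA arrays lay above all 3 BSS arrays (difference 0.50 ± 0.15, SE, n = 3 each), whereas the Dex arrays overlapped them (difference 0.22). 1427049_s_at had 0.15, 0.18 and -0.36 after Dex and 0.14, 0.21 and 0.30 after TAA, against -0.62, 0.013 and -0.17 after BSS, again without overlap between TAA and BSS (difference 0.48, 0.29 without BSS replicate 1 and 0.20 against BSS replicate 2 alone). Against BSS replicate 2 alone the TAA difference of 1427048_at was 0.38. On 1442215_at, with 0.19, 0.13 and -0.11 after Dex and -0.02, 0.012 and 0.022 after TAA, against -0.012, -0.30 and -0.19 after BSS, the Dex difference of 0.24 was the one past an unadjusted p of 0.05.

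The receptor Ptch1, itself a target, had differences nearer 0 than Gli1 and Hhip at day 30, which were not tested against each other. Its 3 probe sets differed from BSS by -0.085, 0.14 and 0.14 after Dex and by -0.028, 0.12 and 0.019 after TAA (1428853_at, 1439663_at and 1450824_at), none past an unadjusted p of 0.05. On 1428853_at the arrays read 0.13, -0.40 and -0.18 after Dex and -0.08, -0.053 and -0.14 after TAA, against -0.0035, -0.003 and -0.18 after BSS, and all 3 groups overlapped. The 95% interval of the difference was -0.40 to 0.23 for Dex and -0.34 to 0.28 for TAA.

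Of the ligands, Shh on 1436869_at was the 1 member with higher values in BSS eyes past an unadjusted p of 0.05: 0.20, -0.22 and 0.18 after Dex and -0.11, 0.35 and -0.16 after TAA, against 0.28, 0.37 and 0.54 after BSS. The 3 Dex arrays lay below the 3 BSS arrays, and TAA overlapped BSS through replicate 2. The differences were -0.34 ± 0.15 after Dex and -0.37 ± 0.15 after TAA (SE, n = 3 each, adjusted p = 0.999 after Dex, limma), and without Dex replicate 2 the Dex difference was -0.20. The second Shh probe set, 1427571_at, did not share this, with 0.037 after Dex and 0.055 after TAA. Ihh read 0.36, 0.002 and 0.25 after Dex and 0.42, -0.12 and 0.083 after TAA, against -0.31, 0.45 and -0.67 after BSS. Its BSS arrays were the most scattered of any member probe set after those of Hhip 1455277_at, and the differences of 0.38 after Dex and 0.30 after TAA lay within that spread.

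**Figure D1:**
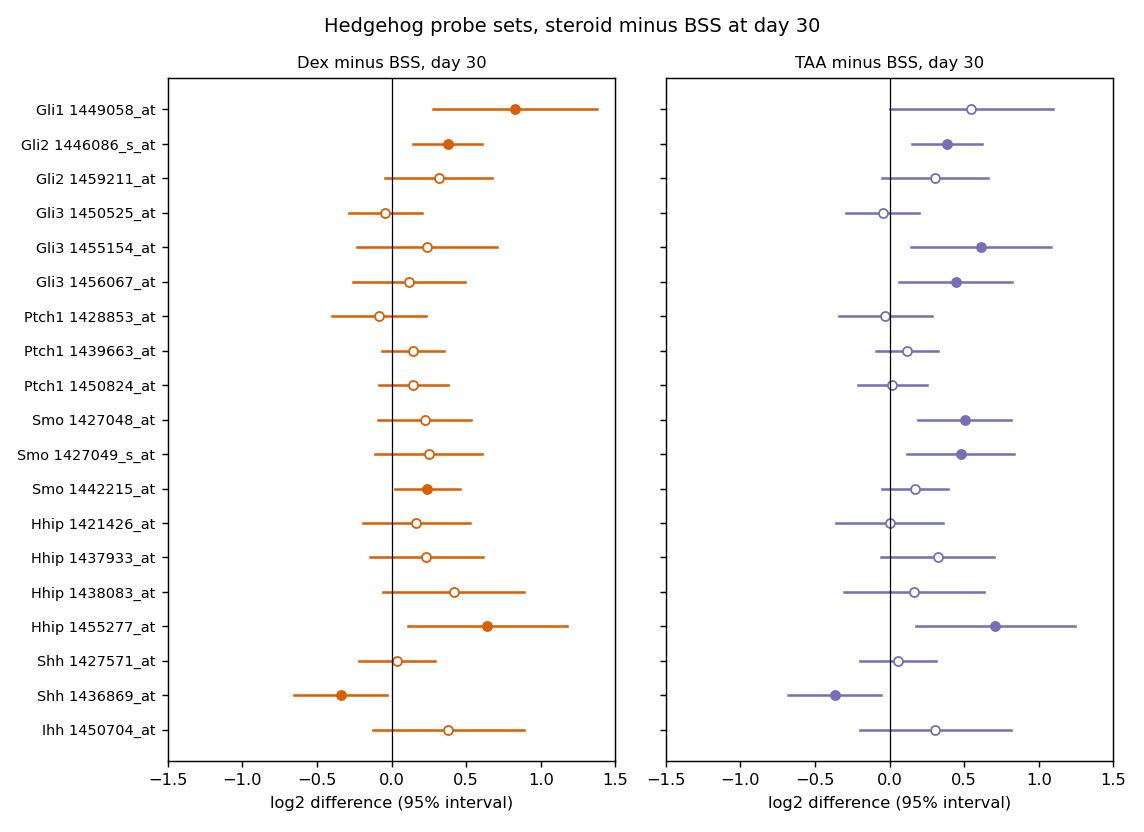
Log2 difference of each steroid from BSS at day 30 (x axis, with the 95% interval) for the 19 Hedgehog probe sets (y axis), Dex left and TAA right, n = 3 arrays a group. Filled points have an unadjusted p of at most 0.05: 5 after Dex and 7 after TAA, of which Shh 1436869_at alone lies below 0.

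Lists of other tissue also differed at day 30. All 23 rod genes were lower in steroid than in BSS eyes (median difference -1.29 after Dex and -0.73 after TAA), as were 14 of 15 inner retina genes after Dex and 12 of 15 after TAA, and 13 and 14 of 14 lens genes. All 12 endothelial genes were higher (median difference 0.40 after Dex and 0.27 after TAA), with 9 of 10 smooth muscle and pericyte genes after either steroid. Their part in the Hedgehog values was not tested.

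At day 7, the median difference of the members from BSS was near 0 after both steroids, but single probe sets differed more. After Dex, 0 of 19 probe sets had an unadjusted p of at most 0.05, where 2.23% of all probe sets did, and after TAA 1 of 19, where 3.93% did. The 1 was Ptch1 on 1450824_at, with 0.0031, 0.011 and -0.095 after Dex and -0.0031, -0.051 and -0.12 after TAA, against 0.33, 0.063 and 0.14 after BSS. The TAA and the Dex arrays lay below the BSS arrays, TAA by -0.23 ± 0.11 (SE, n = 3 each), and the adjusted p was 0.996 by limma. No share of all probe sets is given for groups of day 7 that do not overlap. Gli1 read 0.40, -0.31 and 0.36 after Dex and 0, -0.40 and 0.18 after TAA, against 0.25, -0.11 and 0.099 after BSS. Hhip on 1455277_at read 0.34, 0.095 and 0.47 after Dex and 0.49, -0.12 and 0.32 after TAA, against -0.043, -0.034 and 0.42 after BSS. Both genes overlapped between all 3 groups. The median difference over the 19 probe sets was 0.029 after Dex and 0.0073 after TAA. Hhip 1437933_at had means of 0.29 after Dex and 0.31 after TAA, against 0.047 after BSS. Gli2 1446086_s_at had -0.022 and 0.14, against -0.075, and Smo 1442215_at had -0.10 and 0.19, against 0.12. At this time 23 of 23 rod genes were higher in steroid than in BSS eyes (median 1.57 after Dex and 0.74 after TAA). Their part in the Hedgehog values was not tested here either.

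Few members set TAA apart from Dex. At day 30, 0 of 19 probe sets had an unadjusted p of at most 0.05 (1.91% of all probe sets), and the intervals of TAA minus Dex were -0.83 to 0.27 for Gli1 and -0.47 to 0.60 for Hhip 1455277_at. At day 7, Smo on 1442215_at was the 1 of 19 (2.7% of all), with 0.36, 0.10 and 0.11 after TAA, against -0.12, -0.097 and -0.085 after Dex, and a difference of 0.29 ± 0.10 (SE, n = 3 each). 

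With both days pooled, steroid eyes differed from BSS eyes at an unadjusted p of at most 0.05 on 5 of 19 probe sets (3.51% of all): Gli2 1446086_s_at (0.26), Smo 1427048_at (0.20), Hhip 1437933_at (0.27) and 1455277_at (0.41) were higher and Shh 1436869_at (-0.20) was lower. This count ran from 2 (without BSS replicate 1 of day 30 or of day 7) to 9 (without BSS replicate 2 of day 30) when 1 array was left out, with 8 without Dex replicate 3 of day 30 and 3 without TAA replicate 1 or 3 of day 30 or Dex or TAA replicate 3 of day 7. With BSS replicate 2 as the only control of day 30, 1 of 19 remained, Gli2 1446086_s_at at 0.22. Whether the effect of a steroid differed between day 30 and day 7 was tested directly. For Dex, 3 of 19 probe sets had an unadjusted p of at most 0.05 (2.97% of all), Smo 1442215_at (0.46) and Ptch1 1450824_at (0.35) and 1439663_at (0.30), and for TAA 2 of 19 (3.03% of all), Smo 1427048_at (0.49) and 1427049_s_at (0.62). With 1 array left out, the Dex count ran from 1 (without BSS replicate 3 of day 30) to 6 (without BSS replicate 2) and the TAA count from 0 (without BSS replicate 1 of day 30 or BSS replicate 3 of day 7) to 6 (without BSS replicate 2 of day 30). None passed after adjustment by limma (smallest adjusted p = 0.994).

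**Figure D2:**
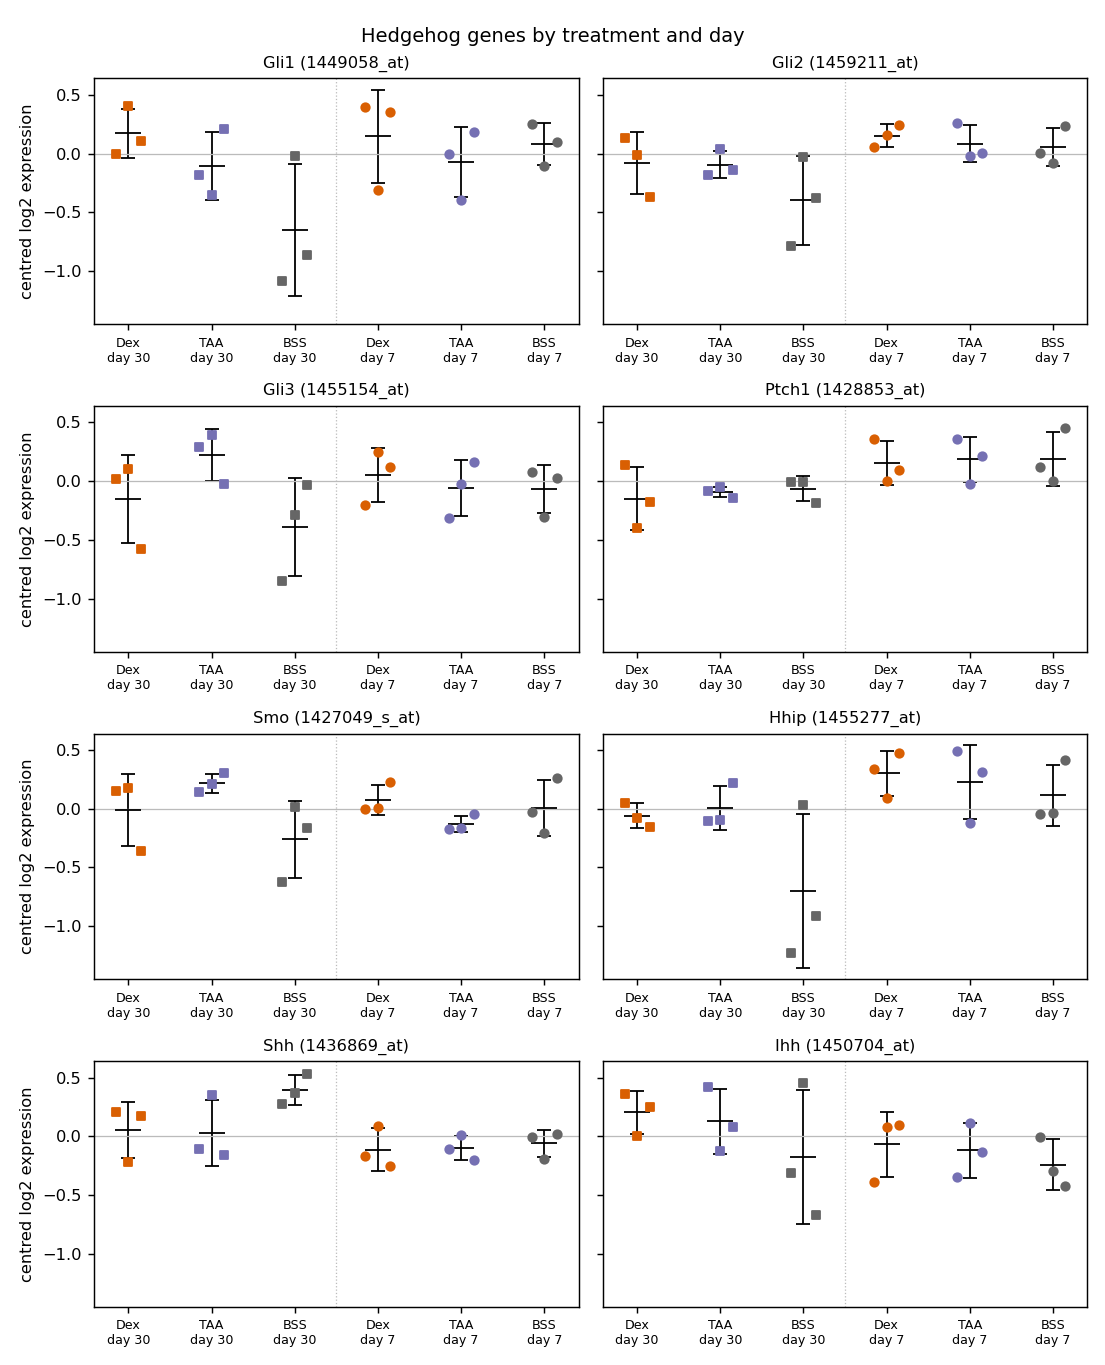
Centred log2 expression (y axis) of the 8 Hedgehog genes in the 6 groups (x axis), 1 point per array, for the probe set of each gene with the largest SD over the 18 arrays. Lines and bars are the mean ± SD of 3 arrays. In Gli1 and Hhip, BSS replicates 1 and 3 at day 30 lie at -0.86 or below, and all other arrays lie at -0.40 or above.

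Day 30 was set against day 7 over all treatments, 9 arrays against 9. Hhip was lower at day 30 on all 4 of its probe sets, Ptch1 and Gli2 on 1 each, and Shh was higher on 1, again with 0 of 19 past an adjusted p of 0.05 (0.399% of all probe sets passed). These 7 of 19 passed an unadjusted p of 0.05 (6 lower, 1 higher), where 13.8% of all probe sets did (8.17% lower and 5.63% higher). Of the 19, 16 were below 0 (median -0.085, against -0.016 over all probe sets, of which 43.1% were above 0).

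Hhip 1438083_at had the smallest adjusted p of any member, 0.0991 by limma. It ran from -0.99 to 0.12 with a median of -0.27 over the 9 arrays of day 30, and from -0.053 to 0.40 with a median of 0.13 over the 9 of day 7, a difference of -0.51 ± 0.13 (SE, 1.42-fold). The day 30 arrays read 0.12, -0.27 and -0.21 after Dex and -0.51, -0.66 and 0.055 after TAA, against -0.99, -0.028 and -0.59 after BSS. The day 7 arrays read 0.13, 0.028 and 0.30 after Dex and 0.40, -0.03 and 0.27 after TAA, against 0.13, -0.053 and 0.34 after BSS. TAA replicates 1 and 2 and BSS replicates 1 and 3 made up the low end at day 30, and the day ranges overlapped. The difference was -0.27 within Dex, -0.58 within TAA and -0.67 within BSS, so it pointed the same way in all 3 treatments.

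The other Hhip probe sets had differences of -0.24 ± 0.097 (1421426_at), -0.38 ± 0.10 (1437933_at) and -0.47 ± 0.14 (1455277_at), with adjusted p of 0.295, 0.124 and 0.178 by limma. 1437933_at read -0.28, -0.037 and -0.034 after Dex and 0.027, -0.027 and -0.08 after TAA, against -0.65, -0.044 and -0.36 after BSS at day 30. At day 7 it read 0.28, 0.08 and 0.52 after Dex and 0.55, 0.042 and 0.35 after TAA, against -0.31, 0.27 and 0.18 after BSS. Within Dex (-0.41) and within TAA (-0.34) all day 30 arrays of 1437933_at lay below all day 7 arrays, and in BSS (-0.40) they overlapped. 1421426_at, at day 30, read 0.21, -0.058 and -0.078 after Dex and -0.04, -0.30 and -0.079 after TAA, against -0.25, 0.04 and -0.22 after BSS. Its values at day 7 were 0.32, -0.12 and 0.38 after Dex and 0.27, -0.33 and 0.26 after TAA, against 0.079, 0.17 and 0.37 after BSS. Days did not overlap in BSS eyes and overlapped in Dex and TAA eyes. Of all splits of 3 against 3, 10% do not overlap. No share of all probe sets is given for days that do not overlap within a treatment, here and below.

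Ptch1 on 1428853_at was lower at day 30 by a like amount in each treatment, -0.30 in Dex, -0.28 in TAA and -0.26 in BSS (days did not overlap in TAA and BSS eyes). At day 7 it read 0.36, 0.003 and 0.097 after Dex and 0.36, -0.022 and 0.22 after TAA, against 0.12, 0.0047 and 0.45 after BSS. The pooled difference was -0.28 ± 0.085 (SE, adjusted p = 0.171 by limma), and -0.26 with BSS replicate 2 as the only BSS array of day 30. The other Ptch1 probe sets differed by -0.05 (1439663_at) and -0.068 (1450824_at). Gli2 on 1459211_at read 0.053, 0.16 and 0.25 after Dex and 0.26, -0.017 and 0.0082 after TAA, against 0.0081, -0.079 and 0.23 after BSS at day 7 and differed between days by -0.29 ± 0.097, and by -0.16 with that 1 BSS array. Shh on 1436869_at read -0.17, 0.089 and -0.26 after Dex and -0.11, 0.0077 and -0.20 after TAA, against -0.0077, -0.20 and 0.023 after BSS at day 7. It was higher at day 30 by 0.25 ± 0.085, with 0.17 in Dex, 0.13 in TAA and 0.45 in BSS.

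Split by treatment, more probe sets passed an unadjusted p of 0.05 between days in BSS eyes than in Dex or TAA eyes. At an unadjusted p of at most 0.05, 1 of 19 probe sets differed in Dex eyes (3.75% of all, and 0 to 2 of 19 with 1 array left out), and 1 of 19 in TAA eyes (4.96% of all, and 0 to 4 of 19 with 1 array left out), against 9 of 19 in BSS eyes (11.4% of all). In BSS eyes 8 were lower, against 5.52% of all, and 1 was higher, against 5.84%. The difference between these counts was not tested as such. Gli1 differed by 0.025 in Dex eyes and -0.035 in TAA eyes, against -0.74 in BSS eyes (adjusted p = 0.373 by limma). Hhip 1455277_at differed by -0.36 in Dex eyes and -0.22 in TAA eyes, against -0.81 in BSS eyes. With BSS replicate 2 as the only BSS array of day 30 the count in BSS eyes was 2 of 19 (3 without BSS replicate 1 of day 30 and 5 without BSS replicate 3 of day 7), and the Gli1 difference was -0.10. Leaving out that array instead had the opposite effect: 4 of 19 probe sets then passed an adjusted p of 0.05 over all treatments, 3 of Hhip and 1 of Gli2 (adjusted p = 0.0142 to 0.045 by limma), where 2.78% of all probe sets passed, and 4 of 19 in BSS eyes, where 4.04% passed. Weights that let each array count by its fit, lowest for that array, gave 5 of 19 over all treatments (5.34% of all probe sets) and 6 of 19 in BSS eyes (7.17% of all). Of the 19, 2 were above 0 in BSS eyes (median -0.27, against -0.03 over all probe sets, of which 42.4% were above 0).

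**Figure D3:**
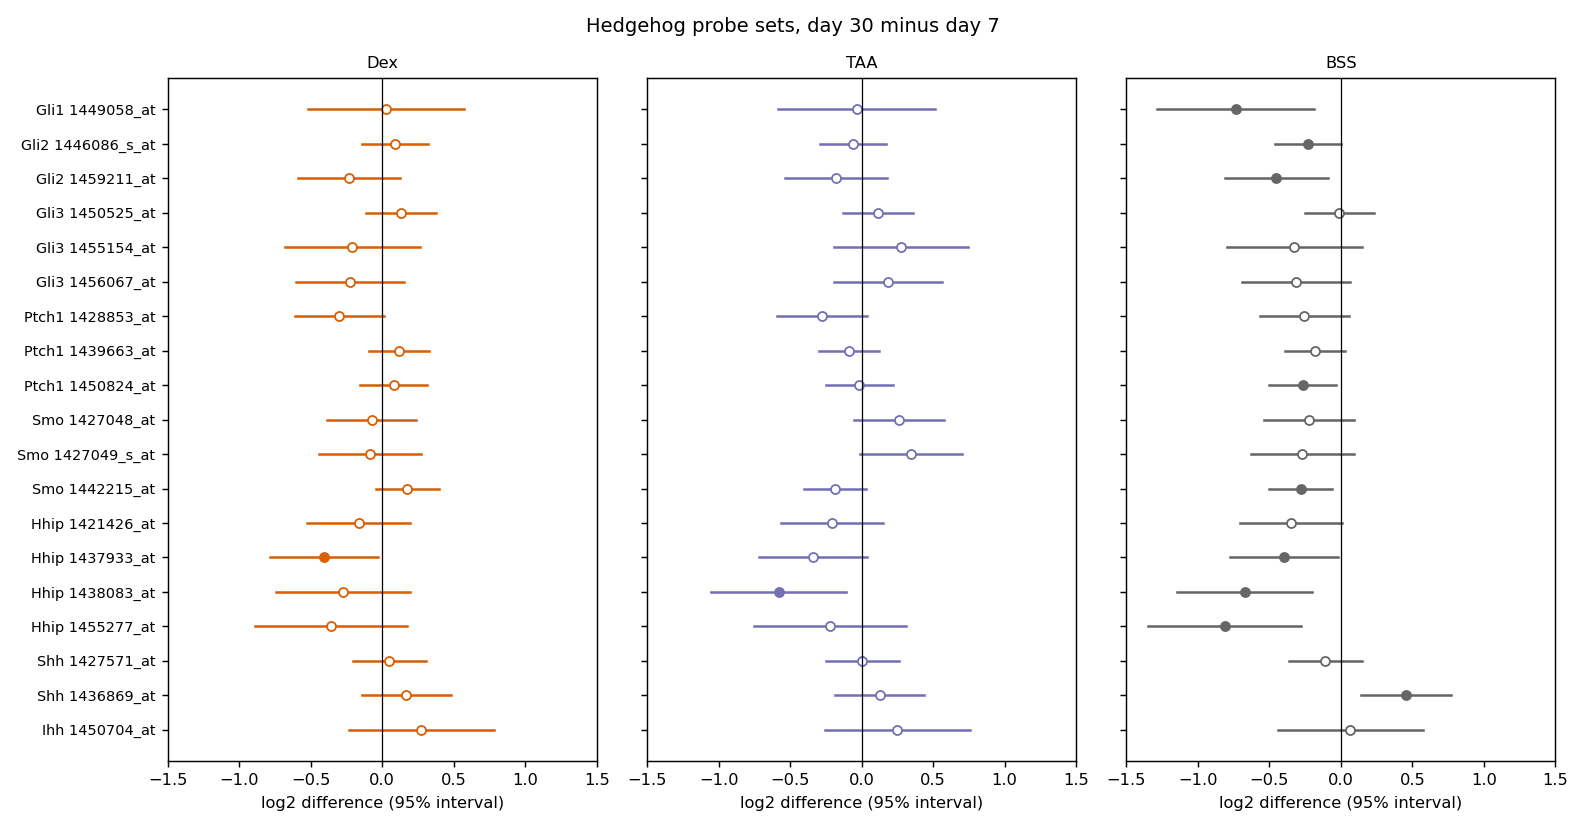
Log2 difference of day 30 minus day 7 (x axis, with the 95% interval) for the 19 Hedgehog probe sets (y axis) in Dex, TAA and BSS eyes, n = 3 arrays a group. Filled points have an unadjusted p of at most 0.05, 1 in Dex, 1 in TAA and 9 in BSS eyes, and all 4 Hhip probe sets lie below 0 in each treatment.

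Other lists also differed between the days: 22 of 23 rod genes were higher at day 30 (median 1.34), and 9 of 11 fibroblast genes (median -0.31), 11 of 12 endothelial genes (median -0.12) and 14 of 14 RPE genes (median -0.093) were lower. Whether these account for the Hedgehog values was not tested. By treatment, 9 of 23 rod genes were above 0 in Dex eyes (median -0.065), 22 in TAA eyes (median 1.25) and 23 in BSS eyes (median 2.82).

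Gli1 and Hhip were lowest on the 2 arrays that were lowest for endothelial genes, BSS replicates 1 and 3 of day 30. The mean of 12 endothelial genes was 0.046, 0.043 and 0.17 after Dex and -0.021, -0.18 and 0.04 after TAA, against -0.71, 0.20 and -0.42 after BSS, at day 30. At day 7 it was 0.39, 0.0014 and 0.24 after Dex and 0.08, -0.033 and -0.082 after TAA, against -0.32, 0.0068 and 0.017 after BSS, and BSS replicate 1, the next lowest array, had a Gli1 value of 0.25. Over the 18 arrays Pearson's r with this mean was 0.803 for Hhip 1455277_at (permutation test, adjusted p = 0.00228 over 8 relations) and 0.766 for Gli1 (adjusted p = 0.00228 by permutation). Spearman's rho was 0.579 for Hhip and 0.603 for Gli1 (adjusted p = 0.0536 for both by permutation). Without the 2 arrays farthest from the median of the endothelial mean, r was 0.393 for Hhip and 0.376 for Gli1, so that the relation rests on those arrays. Within day 30 r was 0.912 for Hhip and 0.914 for Gli1, and within day 7 it was 0.566 and 0.318. For Ihh, which endothelium makes in the mouse choroid, r was 0.358 over all arrays and 0.00563 without the 2 farthest. Within day 30 it was 0.80 and within day 7 -0.32. Gli2 1459211_at had an r of 0.641 (adjusted p = 0.0198 by permutation), a rho of 0.414 (adjusted p = 0.236, permutation) and an r of 0.044 without the 2 farthest. Ptch1 1428853_at had an r of 0.227. Rod means fell in 2 separate sets of arrays, 10 at 0.11 or below and 8 at 1.09 or above, so no pooled r is given. Within the 8 arrays of higher rod signal, rho was -0.952 for Hhip 1455277_at (adjusted p = 0.0178 over 16 relations, permutation) with an r of -0.81 (adjusted p = 0.123, permutation), -0.905 for Gli2 1459211_at (adjusted p = 0.0365, permutation) and -0.762 for Gli1 (adjusted p = 0.148, permutation). Among these 8 the day 7 arrays had rod means of 1.09, 1.34 and 1.72, and the day 30 arrays 2.10 or more. Rod signal and day cannot be told apart there, and the permutation did not keep arrays within their groups. Within the other 10, rho was 0.321 for Hhip, 0.467 for Gli2 and 0.511 for Gli1.

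**Figure D4:**
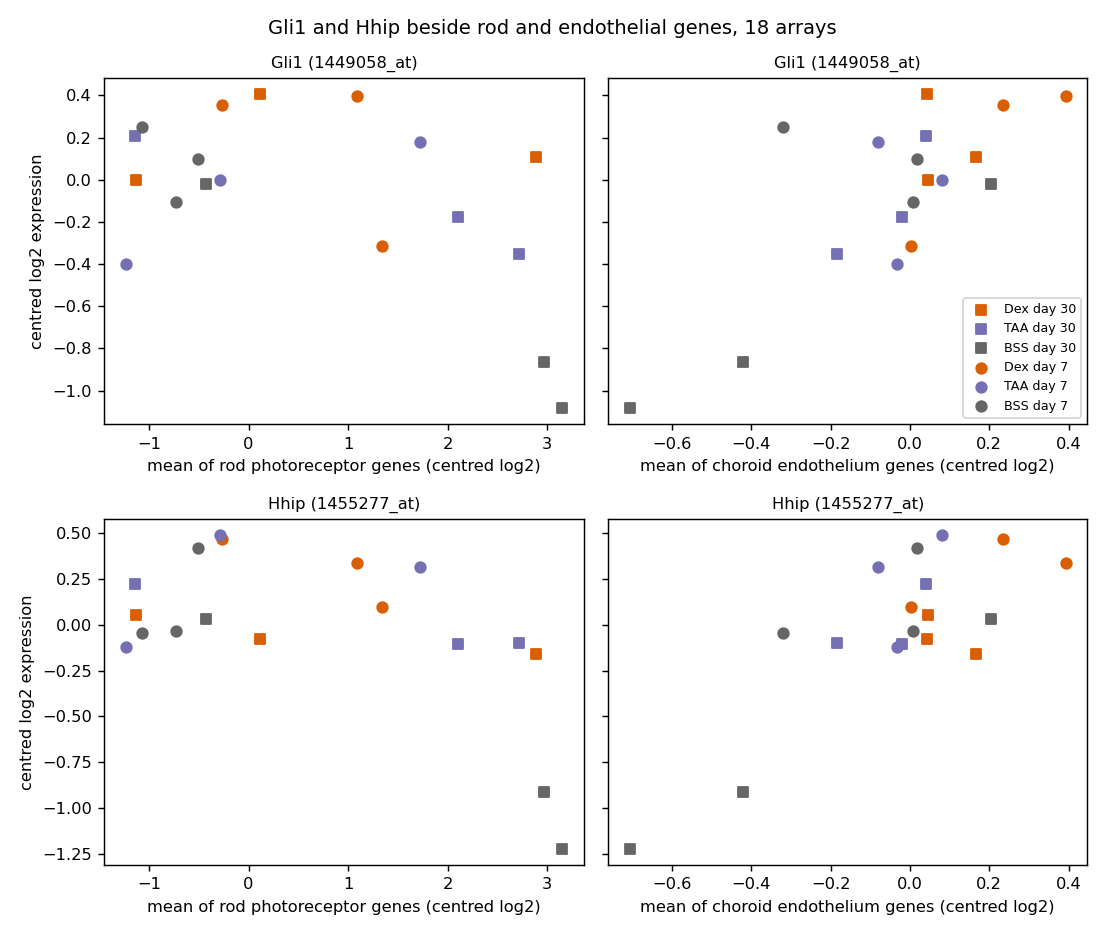
Gli1 (top) and Hhip (bottom) in centred log2 expression (y axes) against the mean of rod genes (left) and of endothelial genes (right) on the same array (x axes, centred log2), 1 point per array, 18 arrays. BSS replicates 1 and 3 at day 30 lie lowest for both genes, at the highest rod means (3.15 and 2.97) and the lowest endothelial means (-0.71 and -0.42). Dex replicate 3 and TAA replicate 2 of day 30 have rod means nearly as high (2.89 and 2.71) and lie above -0.40 for both genes.

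Genes whose profile over the 18 arrays was most like that of a pathway target differed from target to target. For Hhip 1455277_at they were Nr2f2 (r = 0.96), which encodes the venous transcription factor COUP-TFII, Fam167b (r = 0.926) and Slc9a3r2 (r = 0.916). For Gli1 they were Myo1c (r = 0.917), an unconventional myosin, Rcsd1 (r = 0.914) and Kcnj8 (r = 0.907), a potassium channel subunit of pericytes. Without BSS replicates 1 and 3 of day 30, r was 0.904 for Nr2f2 with Hhip and 0.758 for Myo1c with Gli1. For Ptch1 1428853_at the closest were Pik3ca (r = 0.87), Jade1 (r = 0.849) and Smim10l1 (r = 0.845). These are descriptions over 18 arrays that share tissue composition, and the genes were picked as the highest of all named genes.

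Probe sets of 1 gene did not all move together. The 6 pairs of Hhip probe sets had an r of 0.628 to 0.878 over the 18 arrays, Gli3 1455154_at and 1456067_at 0.944, and Smo 1427048_at and 1427049_s_at 0.832 (permutation test, adjusted p of 0.0106 or less for each over 17 pairs). Gli2 had 0.608 (adjusted p = 0.0133, permutation). In contrast, Gli3 1450525_at had -0.185 and -0.187 with the other Gli3 probe sets, Smo 1442215_at had 0.166 and 0.155, the 3 Ptch1 pairs 0.115 to 0.434, and the 2 Shh probe sets -0.474, none at an adjusted p under 0.05. At day 30 the Dex difference of Smo was nonetheless alike on its 3 probe sets (0.22, 0.25 and 0.24), whereas the day 7 difference of TAA from Dex on 1442215_at (0.29) had -0.055 and -0.20 beside it on the others.

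Beyond the 8 genes, 119 probe sets of 49 genes that act in the pathway were followed in 4 lists, and 1 of them, of Gas1, passed the adjusted threshold between the days, where 0.399% of all probe sets did. Gas1 is a co-receptor that helps Ptch1 bind ligand. It was higher at day 30 on 1416855_at, from -0.20 to 0.48 with a median of 0.35 over the 9 arrays of day 30 and from -0.52 to 0.05 with a median of -0.18 over the 9 of day 7, a difference of 0.51 ± 0.099 (SE, 1.43-fold, adjusted p = 0.0363 by limma). At day 30 it read 0.37, 0.35 and 0.21 after Dex and 0.48, 0.43 and 0.14 after TAA, against -0.20, 0.22 and 0.38 after BSS. At day 7 it read -0.42, -0.13 and -0.18 after Dex and -0.41, -0.51 and -0.05 after TAA, against -0.072, -0.52 and 0.05 after BSS. BSS replicate 1, at -0.2, was the 1 day 30 array among the day 7 values. 1448494_at differed by 0.52 ± 0.13 (adjusted p = 0.0963 by limma), and 1456322_at by 0.13 ± 0.062 (adjusted p = 0.366, limma). The call did not hold in 13 of 18 fits that each left out 1 array (adjusted p = 0.0226 to 0.0913, limma) and held without BSS replicate 1 or 2 of day 30, BSS replicate 3 or TAA replicate 3 of day 7, or TAA replicate 3 of day 30.

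**Figure D5:**
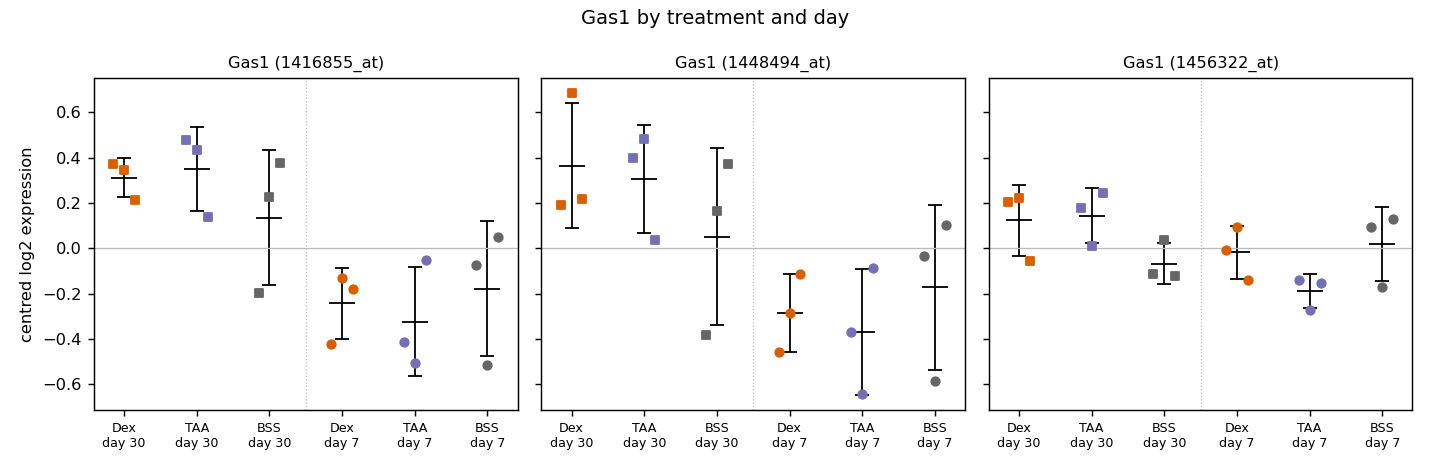
Centred log2 expression (y axis) of the 3 Gas1 probe sets in the 6 groups (x axis), 1 point per array with the mean ± SD of 3 arrays. On 1416855_at all arrays of Dex and TAA at day 30 lie above all of their day 7 arrays. Of all splits of 3 against 3, 10% do not overlap, and no share of all probe sets is given.

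Among genes of ligand release and reception (21 probe sets), 5 were higher and 1 lower at day 30 than at day 7 at an unadjusted p of at most 0.05 (5.63% and 8.17% of all probe sets). With Gas1 these were led by the co-receptor Boc (0.40 on 1426869_at, 0.26 on 1427516_a_at) and Disp1 (-0.36 on 1435132_at), which releases the ligand from its source cell. These probe sets, like the lower ones of Hhip and Ptch1 1428853_at, were picked by their p in this comparison. Others of the same genes differed less, such as Gas1 1456322_at (0.13) and the other Ptch1 probe sets given above. The target Gli1 had means of 0.17, -0.11 and -0.66 at day 30, against 0.15, -0.073 and 0.082 at day 7 (Dex, TAA and BSS in order). No values are given for Cdon, another co-receptor of this list. In BSS eyes, unlike Dex and TAA eyes, Boc changed little: its means were -0.27 at day 30 and -0.31 at day 7 (1426869_at), and -0.046 and -0.036 (1427516_a_at). The other Boc probe set, 1427517_at, had group means between -0.077 and 0.060. Disp1 1434795_at had 0.14, 0.098 and -0.22 at day 30, against 0.078, -0.19 and 0.14 at day 7 (Dex, TAA and BSS in order). Against BSS at day 30, Boc 1426869_at was 0.60 after Dex and 0.54 after TAA, with all steroid arrays above all BSS arrays, and Disp1 1434795_at was 0.35 and 0.31. Scube1, which helps ligand spread, was 0.28 after Dex. These depended on the controls. Without BSS replicate 1, Boc 1426869_at was 0.31 after Dex and 0.26 after TAA. Against BSS replicate 2 alone Disp1 1434795_at was 0.14 and 0.096 and Scube1 0.012 after Dex. Without BSS replicate 2 they were larger: Boc 1426869_at was 0.74 and 0.68, Disp1 1434795_at 0.46 and 0.42, and Scube1 0.41 after Dex. In this list 4 of 21 probe sets were higher and 0 lower after Dex (2.37% and 1.86% of all), and 2 higher and 0 lower after TAA (1.17% and 1.46% of all). At day 7, Disp1 1434795_at (-0.33) and Scube1 (-0.24) were lower after TAA and Gpc3 (0.43), a glypican that binds ligand, was higher after Dex. The adjusted p was 0.995 or more for each of these steroid comparisons (limma).

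Negative regulators (36 probe sets) and genes of the cilium and of positive regulation (18) were read at the same p. After TAA at day 30 the negative regulators Gpr161 on 1447353_at (0.31) and Tulp3 on 1449008_at (0.30) were higher and Gsk3b on 1437001_at (-0.47) was lower at an unadjusted p of at most 0.05, and after Dex Kif7 (0.33) was higher. Between days, Cul3 1434718_at (0.35) and Btrc 1457305_at (0.30), parts of ubiquitin ligases that act on Gli proteins, were higher at day 30, and Gpr161 1436459_at (-0.20) was lower. Kif3a, a motor subunit that builds the cilium, was lower than BSS at day 30 on 1 of its probe sets, 1436560_at, after Dex (-0.34) and TAA (-0.30). In BSS eyes a Kif3a probe set was higher at day 30 than at day 7 (0.52, adjusted p = 0.361 by limma). Ift88, which carries cargo in the cilium, was higher at day 30 by 0.19. Evc, which acts with Smo at the cilium, was higher on 1448876_at after Dex at day 30 (0.52, but -0.043 against BSS replicate 2 alone, as Kif7 was -0.063). In BSS eyes 7 of 36 negative regulator probe sets were higher and 1 lower at day 30 than at day 7 (5.84% and 5.52% of all), 4 of Cul3, 2 of Btrc and 1 of Gsk3b among the higher ones, the largest Cul3 1422795_at at 0.73. Of the 18 probe sets of the cilium list, 3 were higher there and 1 lower. In that comparison all of them had an adjusted p of 0.361 or more (limma).

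Of the downstream targets (44 probe sets), 7 were lower and 1 higher at day 30 than at day 7 at an unadjusted p of at most 0.05 (8.17% and 5.63% of all probe sets). The growth factor Igf2 1415931_at (-0.36, adjusted p = 0.0938 by limma), the cyclin Ccne1 1416492_at (-0.26, adjusted p = 0.0717, limma) and the growth factor receptor Pdgfra, a fibroblast gene, on 1421916_at (-0.39) and 1438946_at (-0.44) were lower, and the transcription factor Mycn (0.29 on 1 of its probe sets) was higher. The other Igf2 probe set, 1448152_at, had group means of -0.084, 0.15 and 0.043 at day 30, against 0.069, 0.14 and -0.060 at day 7 (Dex, TAA and BSS in order). All 9 day 30 values of Ccne1 1416492_at lay below all 9 day 7 values, as was so for 0.12% of all probe sets. This gene was chosen after its values were seen, and the values of its other probe set, 1441910_x_at, are not given here. Against BSS at day 30, Foxc2 (0.69) was higher and Mycn 1417155_at (-0.36) lower after Dex, and Bcl2 1437122_at (0.36) was higher and Mycn 1417155_at (-0.40) lower after TAA. Against BSS replicate 2 alone these were 0.063 for Foxc2 and -0.077 for Mycn after Dex, and -0.0051 for Bcl2 and -0.12 for Mycn after TAA. The median difference over the 44 probe sets was 0.027 after Dex and 0.053 after TAA, against 0.23 and 0.30 over the 19 probe sets of the 8 genes.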

How the data were processed

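Total RNA of RPE/choroid was hybridised to 18 Affymetrix mouse genome arrays. The authors normalised the scans by RMA in GeneSpring with the median of all samples as baseline. The table they deposited holds log2 values of 45101 probe sets. The median of each over the arrays is at most 5e-07 in size, so no filter on weak probe sets was possible and all were kept. The labels and methods differ on the labelling kit.

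Groups were taken from the sample labels. limma 3.58.1 in R 4.3.3 was fitted with 6 group means (12 residual and 3.29 prior degrees of freedom), two-sided, with Benjamini-Hochberg adjustment over all probe sets and 13 contrasts. An adjusted p under 0.05 was the call. The test was tested on simulated data. Replicates are separate animals. An exact test of 3 against 3 cannot go below a p of 0.1.

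The members and lists were chosen with earlier results of these data known. Values per array are given for members with an unadjusted p of at most 0.05 in any contrast and otherwise for the probe set of largest SD. Genes of the other lists are named at the same p, at most 3 per list and contrast, with Ccne1 added after its values were seen. Likeness is Pearson's r over 18 arrays. Correlations used Python 3.11.15 and scipy 1.17.1 with 100000 resamples. Alternatives were array medians, quantile normalization, array weights, a robust prior, gene means, the more variable probe sets, only the groups compared, the methods' t-test, a replicate block and leaving out each array.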

Additional observations from a re-analysis of the deposited data

How the results depend on the processing

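In all alternatives run for them, 0 of 19 members passed an adjusted p of 0.05 against BSS or between steroids, in the tests of a change in steroid effect and in the F-tests over groups. Day 30 minus day 7 was the exception: over all treatments array weights gave 5 members, and leaving out 1 array gave 0 to 4, with 4 without BSS replicate 2 of day 30. In BSS eyes array weights gave 6, and leaving out 1 array gave 0 to 4, again 4 without that array. Those weights set BSS replicate 2 of day 30 to 0.413, the lowest of all arrays. Hhip 1455277_at changed direction with BSS replicate 2 as the only control of day 30 (added after seeing the data), to -0.0944 after Dex and -0.0278 after TAA. The cause was not tested. By the methods' t-test, 0 of 19 members had a p of 0.05 or less for Dex and 2 for TAA at day 30, against 5 and 7 by limma. In other comparisons the count at that unadjusted p stayed at 2 or fewer for TAA or Dex against BSS at day 7 and for TAA against Dex at day 7.

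Same-numbered arrays did not pair: 45 pairs had r of -0.694 to 0.558 (median -0.0471), and 3 of 18 arrays correlated best with their own number. A replicate block left 0 members called in all comparisons, and Gas1 1416855_at at an adjusted p of 0.0622 (limma). Gas1 was also lost with the mean of its probe sets (difference 0.39, adjusted p = 0.0588 by limma). The difference of 1416855_at was 0.51 with the block and 0.54 with BSS replicate 2 as the only control of day 30. The methods' t-test could not be run for the change in steroid effect, nor a fit of only the groups compared for contrasts over all groups. With 3 arrays a group, their number limits the precision, and depth does not apply to arrays.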
